A study of Mus musculus with 4 samples.

Results

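Cells with keratin transcripts but hardly any Gstt1 were examined in mouse KPB25Luv mammary tumours, with and without immune checkpoint therapy. A cell was included where it held at least 5000 unique molecular identifiers (UMIs, each standing for 1 captured RNA molecule), at most 10% of them from mitochondrial genes. It also had to hold at least 5 UMIs of Krt8, Krt18 and Epcam together, at most 1 of Gstt1, at most 1 of Csf1r, and 0 of Ptprc, Cd3e, Pecam1 and Cdh5. The cells were thus chosen by their measured counts of these 9 genes, with no test attached to any of them. This left 128 cells among the 30090 barcodes of the 4 libraries of the series. Of these, 36 came from the treated KPB25Luv tumour library and 92 from the untreated one. They were set against each other and against 1644 untreated cells that passed the same limits with at least 5 Gstt1 UMIs, named Gstt1-high here.

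KPB25Luv cells were placed orthotopically in mammary gland number 4 of female FVB/NJ mice, and therapy was assigned at a tumour diameter of 5 mm. The treated animals received anti-PD1 at 10 mg/kg with anti-CTLA4 at 100 µg, biweekly, and tumours were taken after 7 days. The untreated animals received none. The other 2 libraries come from another tumour line and were not used in the comparisons. Each group is 1 library, so no p-value is given anywhere, and therapy, animal and library preparation cannot be told apart.

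Gstt1 encodes a theta-class glutathione S-transferase, a cytosolic enzyme that couples glutathione to small reactive molecules. Keratins 8 and 18 form the filament pair of simple and luminal epithelia, and claudins form the tight junctions that hold such cells together. Checkpoint antibodies release T cells from inhibition. Interferon-gamma from T cells acts through its receptor and JAK kinases to switch on GTPases, antigen-processing genes and chemokines in the cells that receive it.

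There were 30369476 UMIs over 5509 barcodes in the treated library, 31.6% of which passed the UMI and mitochondrial limits. There were 87677328 UMIs over 6773 untreated barcodes, of which 62.8% passed. Depth differed between the populations as well. The median was 20188 UMIs and 4607 genes per cell in treated Gstt1-low cells, 10795 UMIs and 3025.5 genes in untreated Gstt1-low cells, and 22129 UMIs and 4492.5 genes in untreated Gstt1-high cells. The median mitochondrial share was 2.60% in treated Gstt1-low, 2.51% in untreated Gstt1-low and 2.07% in untreated Gstt1-high cells. In all, 56 barcodes were found in both KPB25Luv libraries, among them that of 1 treated Gstt1-low cell. T cells with at least 2 Cd3e UMIs and 0 of Krt8, Krt18 and Epcam served as a rough gauge of free RNA, 1237 cells of the treated library and 23 of the other. The limit of 0 leaves out T cells that hold free keratin RNA, and T cells may make some of the genes themselves. Their levels are therefore set beside the others as a description and do not measure free RNA alone. Levels are given as CPM, the UMIs of a gene scaled to a common total for each population, and intervals and limits for a count of 0 cover counting error alone.

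The gate fell differently on the libraries. The treated library had 38 cells that met every limit except that on Gstt1, and 36 of them were Gstt1-low, a share of 94.7% (exact binomial 95% interval 82.3 to 99.4). The untreated library had 1918 such cells, of which 92 were Gstt1-low, a share of 4.80% (3.88 to 5.85). Treated Gstt1-high cells numbered 0 of 1743 cells passing the depth limits, which allows a share of up to 0.172%, while untreated ones made up 38.6% (37.2 to 40.1) of 4254 cells. As a share of all cells passing the depth limits, the treated Gstt1-low cells made up 2.07% (1.45 to 2.85) and the untreated ones 2.16% (1.75 to 2.65). So nearly all keratin-positive cells of the treated tumour library were Gstt1-low, and few of the untreated ones were. The Gstt1-low share of all cells was nearly equal at these depth and Gstt1 limits. At a limit of 10000 UMIs the share was 4.70% for treated and 1.72% for untreated cells, and at 2000 UMIs it was 0.812% and 2.20%. The near equality thus holds at the 5000-UMI limit alone of these 3. It also depends on the Gstt1 limit. At 0 Gstt1 UMIs there were 33 treated and 28 untreated cells. With the Gstt1 limits applied to cells thinned to 5000 UMIs there were 34 and 152. Fewer cells of a kind cannot be told apart here from cells lost in dissociation or capture.

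**Figure D1:**
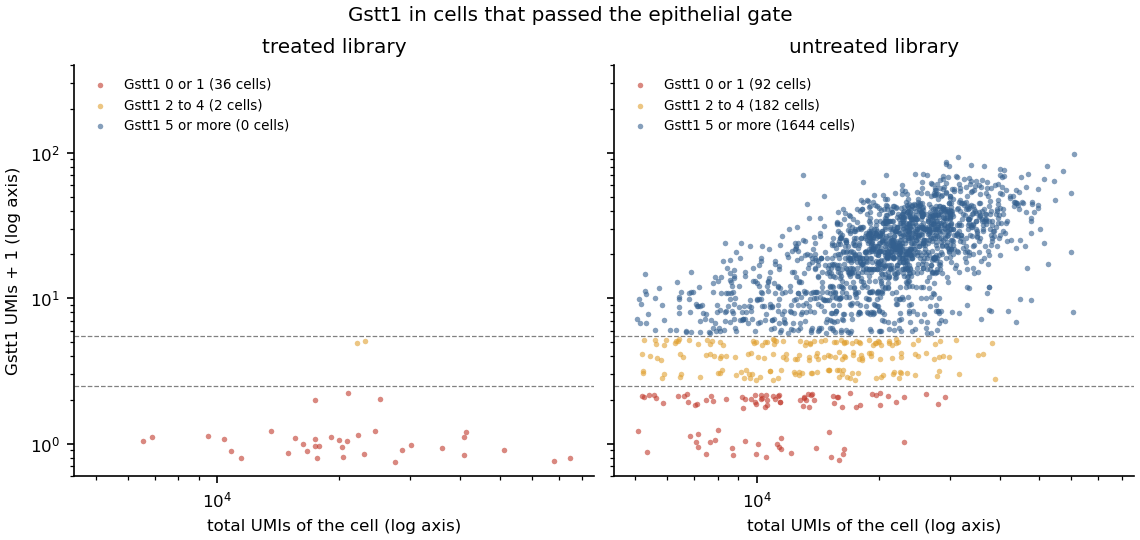
Gstt1 UMIs plus 1 against total UMIs of every cell that met the keratin, immune and endothelial limits, treated library left and untreated library right, both axes on a log scale, points jittered vertically and dashed lines at the Gstt1 limits. Of the treated cells 36 lie at or under 1 Gstt1 UMI and 0 at 5 or more, while of the untreated cells 92 lie at or under 1 and 1644 at 5 or more.

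Gstt1 itself, at chromosome 10, positions 75783813 to 75798584 on the minus strand of GRCm38, was used to choose the cells, and its levels are a description. It stood at 3.42 CPM in treated Gstt1-low cells, 57.8 CPM in untreated Gstt1-low cells and 1043 CPM in untreated Gstt1-high cells. T cells had 1.96 CPM of Gstt1 in the treated library and 104 CPM in the untreated one. The Gstt1 of untreated Gstt1-low cells was below that of T cells of the same library. The Gstt1 limit capped the level of the Gstt1-low cells, while the T cells had no such limit. No conclusion on free RNA can therefore be drawn from this difference. Over all barcodes Gstt1 was at 2.67 CPM in the treated library and 809 CPM in the untreated one.

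Of the 4 markers named for these cells, Krt8 and Krt18 belong to the gate, Fn1 was shared by most cells, and Lum went against the name. Krt8 stood at 1777 CPM in treated Gstt1-low, 2580 CPM in untreated Gstt1-low and 1799 CPM in untreated Gstt1-high cells. Krt18 stood at 1986, 3436 and 1652 CPM in the same order. Fn1, the fibronectin gene of the extracellular matrix, had a lowest, median and highest count of 0, 36 and 143 UMIs per treated Gstt1-low cell and 0, 12 and 74 per untreated Gstt1-low cell. It was seen in 31 of 36 treated Gstt1-low, 84 of 92 untreated Gstt1-low and 1635 of 1644 Gstt1-high cells, at 1559, 1373 and 586 CPM. Lum, encoding the matrix proteoglycan lumican, was detected in 6 of 36 treated Gstt1-low, 1 of 92 untreated Gstt1-low and 23 of 1644 Gstt1-high cells, at 60.4, 6.32 and 1.18 CPM, and 1 cell held 39.6% of the treated UMIs. Most Gstt1-low cells therefore had no Lum, and they are named by the Gstt1 limit alone. Neither a label nor a measured tag tells line cells from epithelium of the host gland, and the origin of the cells was not tested.

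Wfdc2 and Ly6a also stood higher in both Gstt1-low groups than in Gstt1-high cells. Wfdc2, which encodes a secreted whey acidic protein domain protein, was seen in every treated Gstt1-low cell, with 11, 85.5 and 416 UMIs as the lowest, median and highest count. Its level was 4934 CPM in treated Gstt1-low, 3234 CPM in untreated Gstt1-low and 1703 CPM in untreated Gstt1-high cells. Ly6a, the Sca-1 surface antigen, was seen in 35 of 36, 62 of 92 and 675 of 1644 cells in that order, at 2435, 896 and 67.4 CPM. T cells had 467 CPM of Ly6a in the treated library and 126 CPM in the untreated one, below the Gstt1-low cells of their own library. Untreated cells with 2 to 4 Gstt1 UMIs had 3058 CPM of Wfdc2 and 738 CPM of Ly6a, so neither gene is particular to the Gstt1-low cells. Krt5, a keratin of basal cells, was at 0 in the Gstt1-low cells of both libraries. Other basal or myoepithelial genes were not absent. In the 25 treated remaining keratin-rich cells, a subset described below, Krt17 stood at 138 CPM, seen in 9 cells. Acta2 stood at 522 CPM there, seen in 8 cells. Krt5 alone therefore does not show that basal genes were missing.

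Within the 128 cells, 4 subsets were drawn by raw counts after the values were seen, so their defining genes are a description. Keratin-poor cells had fewer than 20 Krt8, Krt18 and Epcam UMIs, Prlr-positive and Csn3-positive cells had at least 5 UMIs of those genes, and the rest are called remaining keratin-rich cells. The last formed the bulk, at 25 of 36 treated cells (69.4%, 51.9 to 83.7) and 59 of 92 untreated cells (64.1%, 53.5 to 73.9). Prlr-positive cells numbered 6 treated (16.7%, 6.37 to 32.8) and 4 untreated (4.35%). Csn3-positive cells numbered 0 of 36 treated, which allows up to 8.33%, and 9 of 92 untreated (9.78%). Keratin-poor cells numbered 5 treated (13.9%) and 20 untreated (21.7%).

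The Prlr-positive cells carried the genes of hormone-sensing luminal mammary cells. Prlr, the prolactin receptor, stood at 3814 CPM in treated and 2003 CPM in untreated cells of this subset. Pgr, the progesterone receptor, was at 214.5 and 111.3 CPM in treated and untreated cells, and the transcriptional cofactor Cited1 at 1180 and 945.9 CPM. Krt19, a luminal keratin, was at 7365 CPM in treated and 10293 CPM in untreated Prlr-positive cells, and at 0 in the remaining keratin-rich and keratin-poor cells of both libraries. Fn1 was near 0 in this subset, at 11.92 CPM in treated and 18.55 CPM in untreated cells.

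The 9 Csn3-positive cells, all untreated, held milk and luminal progenitor genes. Csn3, kappa-casein, stood at 3283 CPM, Trf, transferrin, at 11731 CPM and Lcn2, lipocalin-2, at 7061 CPM. Lalba, alpha-lactalbumin, was seen in 6 of these 9 cells, and Elf5, a transcription factor of alveolar cells, in 7. Igfbp5 was seen in all 9, at 1703 CPM. These cells were shallow, with a median of 7480 UMIs.

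The 20 untreated keratin-poor cells mixed keratin with leukocyte genes. Cd74, the MHC class II invariant chain, stood at 5810 CPM in them and 110.2 CPM in the remaining keratin-rich untreated cells. H2-Aa, an MHC class II chain, stood at 5013 and 54.48 CPM in the same order, and Ccl5 at 7988 and 49.53 CPM. Ccr7, the lymph-node homing receptor of dendritic and T cells, was seen in 7 of these 20 cells. Their summed macrophage and monocyte list of 12 genes was at 5857 CPM, against 485 CPM in the remaining keratin-rich untreated cells. The 5 treated keratin-poor cells differed, with 106.2 CPM of Cd74, 2907 CPM of Fn1 and 3345 CPM of Wfdc2. Because leukocyte genes rest on this subset, the counts of the gene groups below for treated over untreated cells are also given for the remaining keratin-rich cells.

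**Figure D2:**
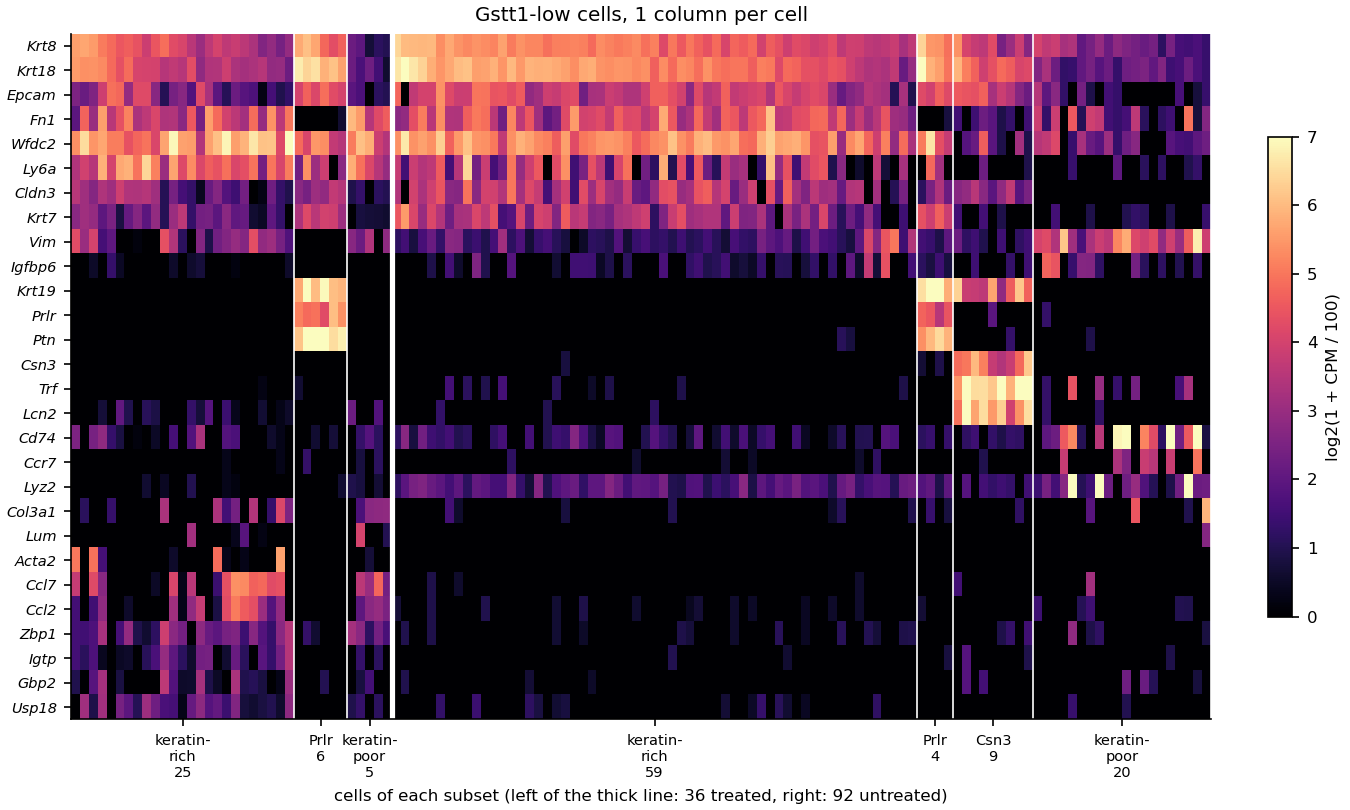
Heat map of 28 genes in rows over the 128 Gstt1-low cells in columns, coloured by log2(1 + CPM/100), treated cells left of the thick line and untreated cells right of it, sorted by subset. Blocks of 25, 6 and 5 treated cells and of 59, 4, 9 and 20 untreated cells differ in Prlr, Csn3 and leukocyte genes, while interferon-induced genes are seen mostly on the treated side.

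Treated Gstt1-low cells were then compared with untreated Gstt1-low cells gene by gene. A gene was compared where both populations together held at least 20 UMIs, and it was called where the ratio of summed CPM was 2-fold or more and its exact conditional 95% interval excluded no difference. This interval covers counting error and says nothing of differences between animals. Of 8049 genes compared, 12.1% were called higher and 5.79% lower in treated cells, 970 and 466 genes. The median log2 ratio over all of them was 0.23, which is also the amount by which a median-ratio scaling would lower each value, and under it the split became 617 higher and 676 lower. With mitochondrial and ribosomal genes left out of the totals it was 705 higher and 599 lower. A gene near 0 in one population is compared only because of its level in the other, so list counts are descriptive.

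Most genes compared from the list of those known to be induced by interferon-gamma were higher in treated Gstt1-low cells. Of 18 list members, 13 had enough UMIs, 11 rose and 0 fell, with a median log2 ratio of 3.46 against 0.23 for all genes. The shares over all genes were 12.1% higher and 5.79% lower. Zbp1, a sensor of Z-form nucleic acids, had 0, 6.0 and 38 UMIs as the lowest, median and highest count per treated cell and 0, 0.0 and 4 per untreated cell. It was seen in 30 of 36 treated Gstt1-low, 21 of 92 untreated Gstt1-low and 690 of 1644 untreated Gstt1-high cells, at 367, 23.5 and 36.5 CPM. The Gstt1-low groups overlap at low counts, and of these 128 cells the ones above 4 UMIs were all treated. After thinning each cell to 5000 UMIs, Zbp1 was seen in 72.2% of treated and 9.78% of untreated Gstt1-low cells.

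The immunity-related GTPases, which act on membranes around intracellular pathogens, gave large ratios. Irgm1 had 124 CPM in treated and 1.81 CPM in untreated Gstt1-low cells, seen in 22 of 36 and 2 of 92 cells, a log2 ratio of 5.79 (4.22 to 9.17). Igtp had 180 and 6.32 CPM in the same order, seen in 23 and 6 cells, a log2 ratio of 4.74 (3.76 to 6.17). Iigp1 had 287 and 13.5 CPM, seen in 21 and 3 cells, a log2 ratio of 4.36 (3.66 to 5.26). None of these was spread over every treated cell, and 1 cell held 22.9% of the treated Irgm1 UMIs. T cells of the treated library had 29.1 CPM of Irgm1, 85.6 CPM of Igtp and 23 CPM of Iigp1, each below the treated Gstt1-low level.

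Guanylate-binding proteins, a second family of interferon-induced GTPases, moved the same way. Gbp2 stood at 218 CPM in treated and 14.4 CPM in untreated Gstt1-low cells, seen in 20 of 36 and 9 of 92, a log2 ratio of 3.87 (3.18 to 4.75), and 1 treated cell held 31.9% of its UMIs. Gbp3 stood at 113 and 2.71 CPM in treated and untreated cells, a log2 ratio of 5.17 (3.79 to 7.68). Irf1, an interferon-induced transcription factor gene, rose by a log2 ratio of 1.44 (0.87 to 2.04). Gbp4 and the chemokine Cxcl10 were not called, with log2 ratios of 0.89 and 0.22. Among the remaining keratin-rich cells 10 of 10 members rose, with a median log2 ratio of 5.21, or 4.84 with genes at 0 set at their bound, while 12.1% of all genes compared there were called higher. The 6 treated Prlr-positive cells had few such UMIs, with 2 of Zbp1, 2 of Irgm1, 1 of Gbp2 and 0 of Igtp, Gbp3 and Usp18. Iigp1 was the exception among these 7 genes, with 41 UMIs and a UMI in all 6 cells.

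Promoter windows of these genes are shown because the family moved together and the interferon response elements lie close to the start site. RefSeq windows of GRCm38.p6, from 250 bases before to 50 after the start, were matched for 8 of the 11 interferon-gamma genes called higher. Capitals mark matches to the gamma-activated site TTCNNNGAA or the interferon-stimulated response element GAAANNGAAA, searched on both strands, where overlapping matches run together. Irgm1 is at chr11:48871371-48871670 on the minus strand, Igtp at chr11:58199306-58199605 on the plus strand and Gbp2 at chr3:142620413-142620712 on the plus strand.
Irgm1: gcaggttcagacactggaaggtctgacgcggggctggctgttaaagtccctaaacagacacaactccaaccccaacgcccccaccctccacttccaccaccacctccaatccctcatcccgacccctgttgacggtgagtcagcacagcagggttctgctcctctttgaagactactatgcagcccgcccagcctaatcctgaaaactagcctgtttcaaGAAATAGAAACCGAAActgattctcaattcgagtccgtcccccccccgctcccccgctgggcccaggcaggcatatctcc
Igtp: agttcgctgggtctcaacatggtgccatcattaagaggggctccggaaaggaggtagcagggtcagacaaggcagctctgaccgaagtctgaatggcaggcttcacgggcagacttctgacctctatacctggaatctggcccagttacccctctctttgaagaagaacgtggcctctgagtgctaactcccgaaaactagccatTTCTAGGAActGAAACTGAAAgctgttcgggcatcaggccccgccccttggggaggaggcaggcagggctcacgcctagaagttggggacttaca
Gbp2: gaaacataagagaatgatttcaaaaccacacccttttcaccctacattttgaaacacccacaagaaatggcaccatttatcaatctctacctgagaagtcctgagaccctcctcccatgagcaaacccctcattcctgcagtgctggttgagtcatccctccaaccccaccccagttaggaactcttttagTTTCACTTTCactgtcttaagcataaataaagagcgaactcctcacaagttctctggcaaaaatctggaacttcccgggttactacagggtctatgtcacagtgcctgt
In Irgm1 a pair of overlapping response elements began 30 and 24 bases before the start site. Igtp held TTCTAGGAA at 45 bases and GAAACTGAAA at 34 bases before it, and Gbp2 held the element on the other strand at 59 bases. The 8 genes have 10 windows, of which 4 held the gamma-activated site and 7 the response element, against 8.30% and 3.44% of all 32851 windows. These genes came from a list of genes known to be induced by interferon-gamma. An excess over all windows was therefore set by that choice and says nothing of these cells. List members that were not called higher were not searched. A match is a description of the letters, and binding was not measured.

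Genes of the type I interferon response also rose, 7 of 8 compared and with a median log2 ratio of 2.32. Usp18, which restrains type I interferon signalling, had 231 CPM in treated and 16.3 CPM in untreated Gstt1-low cells, seen in 26 of 36 and 15 of 92. Treated T cells had 7.31 CPM of Usp18. Bst2, the virion tether tetherin, stood at 510 and 73.1 CPM in treated and untreated cells, and Xaf1 at 93.5 and 4.51 CPM. The member not called was Ifi35, at 96.9 and 61.4 CPM. The same 7 of 8 count held for the remaining keratin-rich cells, with a median of 3.86, or 3.64 with genes at 0 at their bound. Of 11 interferon receptor and JAK-STAT genes 3 rose and 0 fell, and 4 of 9 rose in the remaining keratin-rich cells. Beside these lists, 12.1% of all genes compared were called higher and 5.79% lower. In the remaining keratin-rich cells the shares were 12.1% and 4.98%. With so few members the receptor and JAK-STAT counts are a description.

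MHC class I genes moved less. Of 15 members 3 rose and 0 fell, against 12.1% and 5.79% of all genes, so the list as a whole stood out little. The 3 were the peptide transporter genes Tap1 and Tap2 and the chaperone gene Tapbp, with log2 ratios of 1.43, 1.66 and 1.22. H2-K1 stood at 739 CPM in treated and 724 CPM in untreated Gstt1-low cells, and B2m at 2061 and 1770 CPM. Within the remaining keratin-rich cells 8 of 15 rose, against 12.1% of all genes compared there. Among them were the immunoproteasome gene Psmb8, at 262 CPM in treated and 58.2 CPM in untreated cells, and Psmb9, at 110 and 13.6 CPM. The untreated keratin-poor cells with leukocyte genes are part of the first comparison and not of the second. Cd274, which encodes PD-L1, was seen in 3 of 36 treated and 2 of 92 untreated Gstt1-low cells.

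Among chemokines and cytokines 2 of 11 rose and 2 fell, against 12.1% and 5.79% of all genes, so the list as a whole did not stand out and the members are given singly. The remaining keratin-rich cells gave 2 higher and 2 lower of 9. Ccl7, which draws monocytes, had 1147 CPM in treated and 11.7 CPM in untreated Gstt1-low cells, seen in 19 of 36 and 5 of 92, a log2 ratio of 6.56 (5.83 to 7.52). Ccl2, another monocyte chemokine, had 696 and 19.0 CPM, seen in 20 and 19 cells, a log2 ratio of 5.17 (4.57 to 5.90). Both were carried by part of the cells, with 27.4% of the treated Ccl7 and 36.3% of the treated Ccl2 UMIs in 1 cell. T cells of the treated library had 1.66 CPM of Ccl7 and 1.36 CPM of Ccl2. The neutrophil chemokine Cxcl2 stood at 2.28 and 65.0 CPM in treated and untreated cells, and Cx3cl1 at 7.98 and 40.6 CPM, both lower after treatment.

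**Figure D3:**
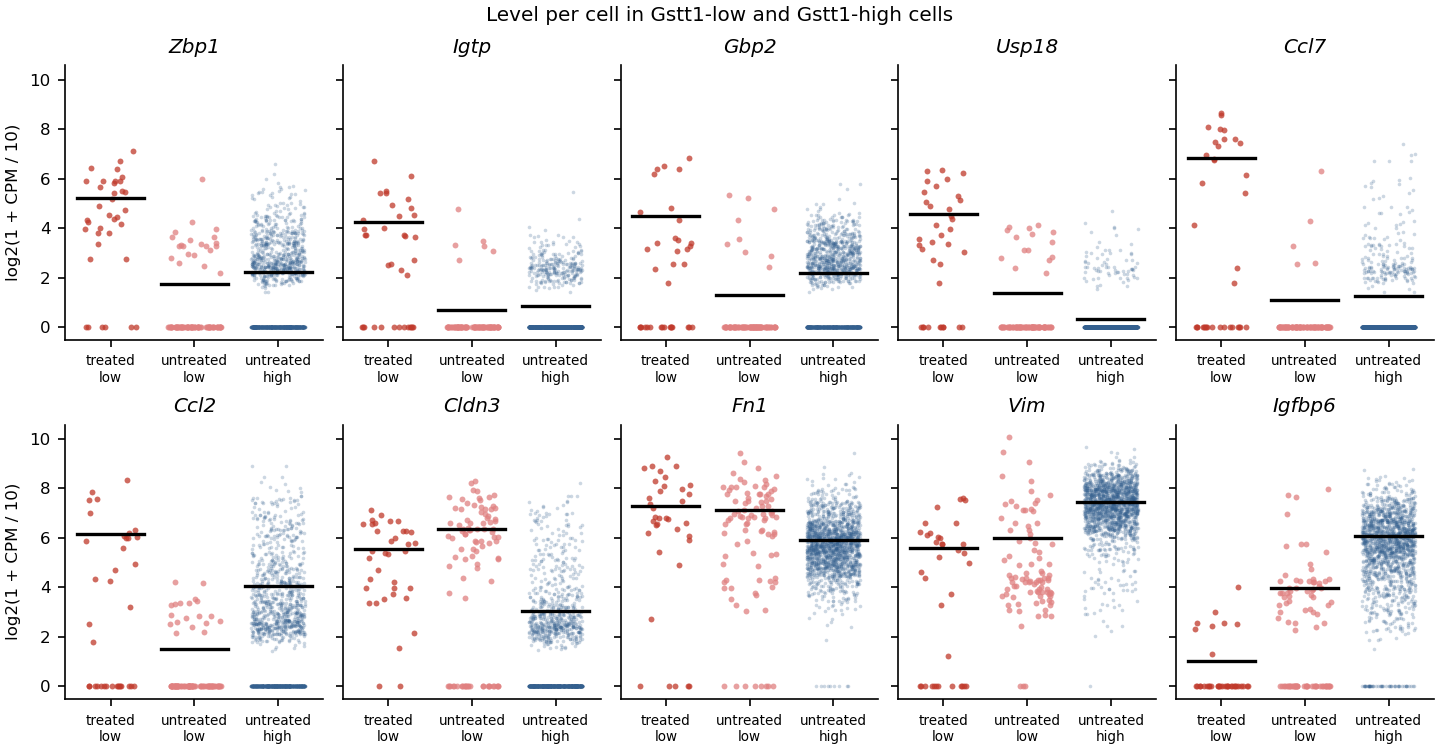
Levels per cell as log2(1 + CPM/10) of 10 genes in treated Gstt1-low (left), untreated Gstt1-low (middle) and untreated Gstt1-high cells (right), 1 point per cell, with the black line at the level of the summed UMIs. Zbp1, Igtp, Gbp2, Usp18, Ccl7 and Ccl2 lie highest in treated Gstt1-low cells, while the summed level of Cldn3 and Fn1 is higher in both Gstt1-low groups than in Gstt1-high cells and that of Vim and Igfbp6 is highest in Gstt1-high cells.

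Single matrix and mesenchymal genes rose. Collagen and matrix genes gave 6 higher and 5 lower of 12. Dcn, encoding the proteoglycan decorin, stood at 430 CPM in treated and 160 CPM in untreated Gstt1-low cells, and Col3a1, a fibrillar collagen, at 250 and 97.5 CPM. Col1a2 was at 2.28 and 68.6 CPM, and 1 untreated cell held 93.4% of its UMIs. Of 7 members compared in the remaining keratin-rich cells 6 rose and 1 fell, and Dcn stood at 471 CPM in treated and 95.3 CPM in untreated cells. The fibroblast list of 12 genes was summed to 824 CPM in treated and 451 CPM in untreated Gstt1-low cells, with Dpt and Fap at 0 in both, and its part in these results was not tested. Among mesenchymal genes 3 of 14 rose and 0 fell, against 12.1% and 5.79% of all genes, and 4 of 14 rose in the remaining keratin-rich cells. The 3 were the transcription factor gene Snai2 at 54.7 and 5.42 CPM, the matrix gene Tnc at 290 and 69.5 CPM and N-cadherin Cdh2 at 71.8 and 22.6 CPM.

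Acta2, smooth-muscle actin, had 0, 0.0 and 198 UMIs as the lowest, median and highest count in treated Gstt1-low cells and 0 in every untreated one. It was seen in 9 of 36 treated cells, at 429 CPM, at least 158-fold higher with a floor of 3 counts over the untreated group, and 1 cell held 52.7% of its UMIs. Ly6c1, a Ly6 surface antigen gene, was more widespread, at 929 and 42.4 CPM in treated and untreated cells, seen in 30 of 36 and 20 of 92, a log2 ratio of 4.44 (4.03 to 4.91). C1s1, a protease of the classical complement pathway, stood at 85.5 and 0.903 CPM and was seen in 21 of 36 treated cells. The vitamin A transporter gene Stra6 stood at 173 and 4.51 CPM, and Mmp12, a macrophage-type elastase, at 431 and 12.6 CPM. Of 6 hormone-sensing luminal genes compared 5 rose and 1 fell over all treated Gstt1-low cells, against 12.1% and 5.79% of all genes. In the remaining keratin-rich cells 2 of the list could be compared, of which 1 rose.

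Cell division genes gave 10 higher and 0 lower of 20 in treated Gstt1-low cells, with a median log2 ratio of 0.93. The shares over all genes were 12.1% higher and 5.79% lower. Cdk1, the mitotic kinase, stood at 219 CPM in treated and 78.6 CPM in untreated cells, though 1 cell held 31.8% of the treated UMIs. Ube2c, which acts in mitotic exit, stood at 734 and 312 CPM, and Plk1, a mitotic kinase, at 50.2 and 14.4 CPM. Mki67 was not called, at 46.7 and 68.6 CPM, nor was the topoisomerase gene Top2a, at 260 and 143 CPM. The remaining keratin-rich cells gave 10 higher and 0 lower of 20 as well. The median was 0.70 under median-ratio scaling and 0.35 where the Gstt1 limits were applied to cells thinned to equal depth. Depth moved with these values, the treated cells being the deeper ones, and its part was not tested.

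Genes of glutathione metabolism and stress also rose in part. The glutathione list had 6 higher and 1 lower of 17, against 12.1% and 5.79% of all genes. Under median-ratio scaling the split over all genes became 617 higher and 676 lower, and the list counts here are without that scaling. Gclm, the modifier subunit of the enzyme that begins glutathione synthesis, stood at 200 CPM in treated and 49.7 CPM in untreated Gstt1-low cells. Gclc, its catalytic subunit, stood at 42.2 and 7.22 CPM, and 1 cell held 59.5% of the treated UMIs. The transferase gene Gstm2 was at 26.2 and 0.903 CPM, while Gstp1 was lower, at 21.7 and 46.1 CPM. Of 13 genes of the unfolded protein response 5 rose and 0 fell, led by Trib3 at 86.6 and 9.03 CPM and the asparagine synthetase gene Asns at 137 and 38.8 CPM. The remaining keratin-rich cells gave 6 higher and 0 lower of 13 on the glutathione list and 5 higher and 0 lower of 13 on the unfolded protein list. Over all genes compared there the shares were 12.1% and 4.98%.

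Among the genes lower in treated Gstt1-low cells were milk and leukocyte genes of the Csn3-positive and keratin-poor subsets of the untreated library. The share of genes called lower was 5.79% of 8049 genes over all Gstt1-low cells. In the remaining keratin-rich cells it was 4.98% of 7133 genes. How many genes were called lower in both was not counted. All 7 of the luminal progenitor and milk genes compared fell. Trf stood at 2.28 CPM in treated and 811 CPM in untreated cells, and Csn3 at 0 and 219 CPM, at least 63.9-fold lower. Among the remaining keratin-rich cells 2 of these genes could be compared, 1 higher and 1 lower. Of the macrophage and monocyte list 8 of 8 fell, with Lyz2, lysozyme, at 11.4 and 923 CPM. The summed list was at 33.1 CPM in treated and 1391 CPM in untreated Gstt1-low cells, with Csf1r, Adgre1 and the C1q genes at 0 in the treated ones. T cells had 398 CPM of this list in the treated library and 1224 CPM in the untreated one, and the part of free RNA in the difference was not tested. The untreated level was highest in the keratin-poor cells, and in the remaining keratin-rich cells the summed list was at 33.4 CPM in treated and 485 CPM in untreated cells, with 6 of 6 genes compared called lower. MHC class II genes fell in 4 of 6, H2-Aa standing at 12.5 and 826 CPM in treated and untreated Gstt1-low cells, and in 3 of 6 for the remaining keratin-rich cells. Of 16 hypoxia and glycolysis genes 0 rose and 3 fell, and of 18 nuclear genes of oxidative phosphorylation 0 rose and 0 fell, with the same counts in the remaining keratin-rich cells.

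A set of genes was lower within the remaining keratin-rich cells too, where 4.98% of genes were called lower. Tnnt2, a cardiac troponin gene, was at 16.7 CPM in treated and 202 CPM in untreated cells, seen in 5 of 25 and 44 of 59 of them, a log2 ratio of -3.54. Cst6, a cystatin, stood at 41.8 and 369 CPM, and Calcb, a calcitonin-related peptide, at 69.6 and 536 CPM. Hbegf, an EGF receptor ligand, stood at 72.4 and 345 CPM, and Hmga2, a chromatin architectural factor, at 142 and 362 CPM. Of 14 junction genes 1 rose and 3 fell over all treated Gstt1-low cells, and 0 rose and 4 fell in the remaining keratin-rich cells. Among 4 claudins, Cldn4 fell, at 52.4 and 122 CPM in treated and untreated Gstt1-low cells, and so did Cldn7, at 127 and 348 CPM. Cldn3 and Cldn6 were not called, with log2 ratios of -0.84 and -0.36. Igfbp6, which binds insulin-like growth factor II, stood at 10.3 and 149 CPM, a log2 ratio of -3.79, with 1.28 CPM in treated and 74.2 CPM in untreated T cells.

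Within the untreated library, Gstt1-low cells were set against Gstt1-high cells, which share 1 library and 1 tumour. Of 12491 genes compared, 12.1% were called higher and 5.11% lower in Gstt1-low cells, with a median log2 ratio of 0.05. Cldn3, a tight junction claudin, had 0, 7.0 and 44 UMIs as the lowest, median and highest count per Gstt1-low cell and 0, 0 and 65 per Gstt1-high cell. It was seen in 67 of 92 Gstt1-low and 614 of 1644 Gstt1-high cells, at 819 and 72.4 CPM, a log2 ratio of 3.50 (3.39 to 3.61). The ranges overlap, but the median Gstt1-high cell had no Cldn3 although it was the deeper one. T cells of the untreated library had 37.1 CPM.

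Junction genes as a group were higher, 10 of 15, with 1 lower and a median log2 ratio of 2.52. The shares over all genes were 12.1% higher and 5.11% lower. Cldn4 stood at 122 CPM in Gstt1-low and 8.86 CPM in Gstt1-high cells and Cldn7 at 348 and 39.5 CPM. Dsp, the desmosomal plaque gene desmoplakin, stood at 28.0 and 1.20 CPM. The E-cadherin gene Cdh1 was not called, with a log2 ratio of 0.86. Of the epithelial list 10 of 11 rose, Krt7 at 744 and 171 CPM. With the remaining keratin-rich cells alone 9.3% of all genes were called higher and 4.77% lower. There, 12 of 15 junction genes and 10 of 11 epithelial genes rose. The keratin limit of this subset left out 20 of 92 Gstt1-low and 82 of 1644 Gstt1-high cells as keratin-poor. In untreated Gstt1-low cells Krt18 had a Spearman correlation of 0.62 with Cldn3 and -0.50 with Vim. In Gstt1-high cells these were 0.18 and 0.17. The subset's junction and epithelial counts are therefore not independent of the keratin limit, and its part in them was not tested. The laminin and integrin list had 8 of 16 higher, Lama3, a chain of laminin-332, standing at 51.5 and 5.81 CPM.

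Vim, the mesenchymal filament gene vimentin, ran the other way, with 0, 2.5 and 148 UMIs as the lowest, median and highest count per Gstt1-low cell and 0, 35 and 172 per Gstt1-high cell. It stood at 628 and 1752 CPM, a log2 ratio of -1.48 (-1.59 to -1.37). In the remaining keratin-rich cells Vim stood at 281 and 1758 CPM, a ratio of -2.64. That larger difference is likewise not independent of the keratin limit. T cells of the untreated library had 994 CPM. Snai1, a transcription factor gene of epithelial-mesenchymal transition, stood at 13.5 and 68.5 CPM in Gstt1-low and Gstt1-high cells, and Prrx1, a mesenchymal homeobox gene, at 66.8 and 160 CPM. Not every mesenchymal gene moved so, since Fn1 rose by a log2 ratio of 1.23 (1.15 to 1.30) and Cd44, a hyaluronan receptor, stood at 236 and 80.0 CPM. Igfbp6 was at 149 and 674 CPM, and Gsta4, an alpha-class glutathione transferase, at 96.6 and 594 CPM.

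Values on both sides of the Gstt1 limit are given as a description. Cldn3 reached 5 UMIs in 57.1% of 28 untreated cells with 0 Gstt1 UMIs, 62.5% of 64 cells with 1, 64.4% of 59 cells with 2, 47.5% of 59 cells with 3, 51.6% of 64 cells with 4, and 7.42% of 1644 cells with 5 or more. Cells just outside the limit, with 2 to 4 Gstt1 UMIs, thus had Cldn3 shares nearer to those of Gstt1-low than of Gstt1-high cells. The summed level of Vim was 498, 676, 559, 1042, 857 and 1752 CPM over the same classes. Median depth was 10010, 11201, 13647, 14699, 13690 and 22129 UMIs over these classes.

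**Figure D4:**
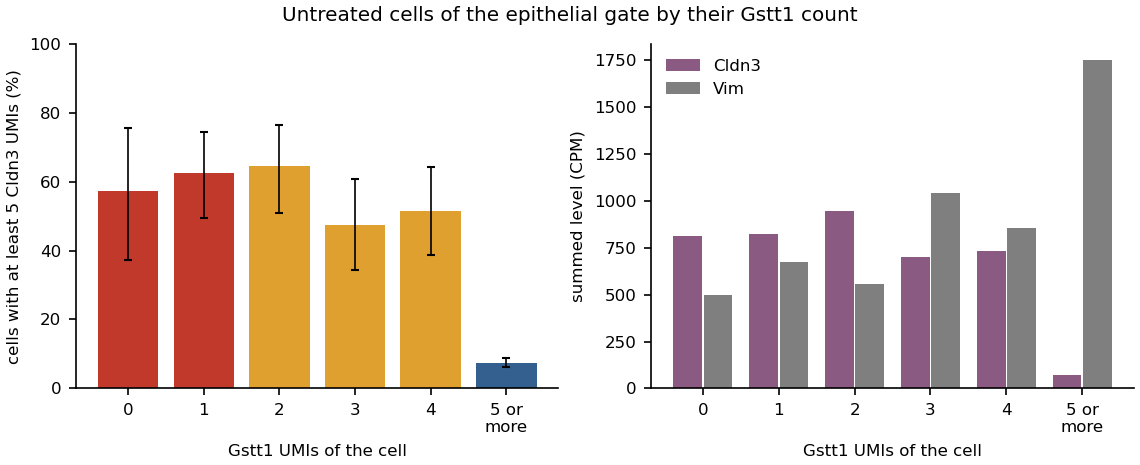
Left, the percent of untreated keratin-positive cells with at least 5 Cldn3 UMIs by their Gstt1 count (0 to 4, and 5 or more), with exact binomial 95% intervals as error bars and colours for Gstt1-low (red), 2 to 4 UMIs (yellow) and Gstt1-high (blue), and right, the summed CPM of Cldn3 and Vim over the same classes. The Cldn3 share lies between 47.5% and 64.4% for 0 to 4 Gstt1 UMIs and at 7.42% for 5 or more.

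Division genes were lower in untreated Gstt1-low than in Gstt1-high cells, and interferon-gamma genes in part. Over all genes compared 12.1% were called higher and 5.11% lower, and in the remaining keratin-rich cells 9.3% and 4.77%. Of 20 division genes 0 rose and 14 fell, with a median log2 ratio of -1.08, Plk1 standing at 14.4 and 61.9 CPM. Restricted to the remaining keratin-rich cells, 7 fell. Of 15 interferon-gamma genes 2 rose and 4 fell, and in the remaining keratin-rich cells 0 rose and 5 fell of 14. Gbp2 stood at 3.71 CPM in Gstt1-low and 36.3 CPM in Gstt1-high cells of the remaining keratin-rich kind. Ccl2 stood at 19.0 and 156 CPM in all Gstt1-low and Gstt1-high cells. Of 15 MHC class I genes 0 rose and 5 fell in those cells, among them Psmb8, Psmb9 and Psmb10. The Gstt1-low cells were the shallower ones, and the part of depth in these results was not tested.

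Several of the highest ratios over Gstt1-high cells belonged to genes of the subsets. Igfbp5, Csn3, Lcn2 and Krt19 had log2 ratios of 8.22, 7.40, 7.34 and 6.92. All 8 luminal progenitor and milk genes compared rose, beside 12.1% of all genes. In the remaining keratin-rich cells 0 of 4 rose, beside 9.3% of all genes. Other genes held in the bulk. There, S100a14, an S100 calcium-binding protein gene, stood at 172 CPM in Gstt1-low and 5.76 CPM in Gstt1-high cells, seen in 27 of 59 Gstt1-low cells. Ndrg1, a stress-responsive gene, stood at 650 and 39.7 CPM, seen in 53 of 59, and Mmp10, a stromelysin, at 119 and 4.91 CPM, seen in 31 of 59.

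Treated Gstt1-low cells were last set against untreated Gstt1-high cells, where 14.4% of 12471 genes were called higher and 4.03% lower. The comparisons share populations, so their values are given side by side only. Median-ratio scaling would lower these ratios by 0.21, and the split of 1801 higher and 502 lower became 1424 higher and 783 lower under it. Of 16 interferon-gamma genes 12 rose and 1 fell, with a median log2 ratio of 2.84, and of 12 type I interferon genes 10 rose. Junction genes rose in 11 of 14 and fell in 1, and epithelial genes rose in 10 of 11. For the remaining keratin-rich cells, where 13.9% of genes were called higher and 3.85% lower, 11 of 15 interferon-gamma genes and 11 of 14 junction genes rose. The junction count of this subset is again not independent of the keratin limit. The Gstt1-low cells of the treated tumour thus stood above Gstt1-high cells both in interferon-induced and in junction genes, while untreated Gstt1-low cells did so in junction genes.

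Single genes set the treated Gstt1-low cells apart further. Nos2, inducible nitric oxide synthase, stood at 103 CPM in treated Gstt1-low and 0.482 CPM in untreated Gstt1-high cells, seen in 21 of 36 treated cells. Tspan8, a tetraspanin, stood at 155 and 0.562 CPM. Igfbp6 stood at 10.3 and 674 CPM, a log2 ratio of -5.96, and the urea transporter gene Slc14a1 at 1.14 and 70.3 CPM. Snai1 was at 0 in all 36 treated Gstt1-low cells and at 68.5 CPM in Gstt1-high cells, at least 20.03-fold lower with a floor of 3 counts over the group. Division genes were close to those of Gstt1-high cells, with 0 higher and 2 lower of 20 and a median of -0.18.

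**Figure D5:**
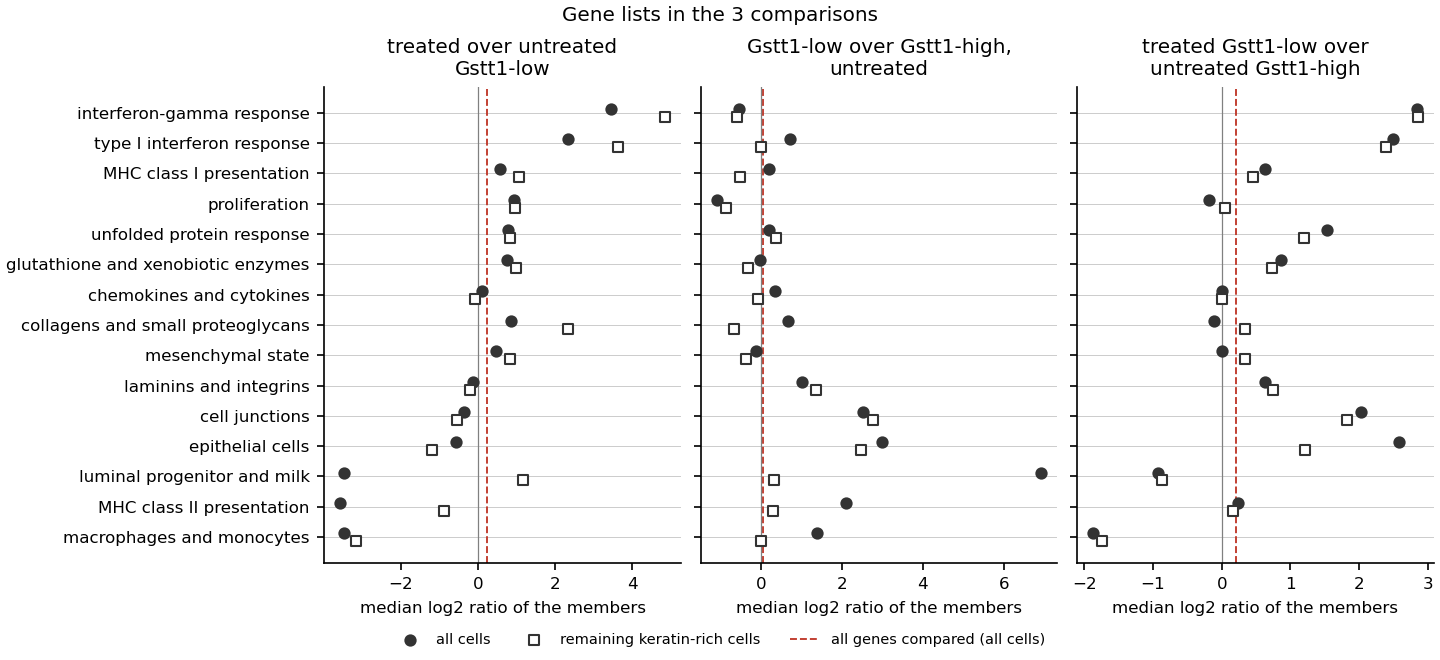
Median log2 ratio of 15 gene lists in 3 panels, treated over untreated Gstt1-low, untreated Gstt1-low over Gstt1-high, and treated Gstt1-low over untreated Gstt1-high, with genes at 0 set at their bound. Filled points are all cells, open squares the remaining keratin-rich cells, and the dashed red line is the median of all genes compared, 0.23 in the treated over untreated panel.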

How the data were processed

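Tumours were dissociated and captured with the 10x Genomics 3′ version 2 kit, per the labels' protocols. The authors deposited whole UMI counts per gene and barcode for 4 libraries, made with Cell Ranger 3.0.2, per the file headers, on the mouse build mm10, per the submitters' processing notes. Cells were chosen by raw counts, summed per population and divided by the population's total (CPM), and log2 ratios used 0.5 added counts. Cells are not replicates and each group is 1 library, so no test over samples was possible. The members and lists were chosen with earlier results of these data known. For each of the 3 comparisons the rule named the 12 called genes farthest from 0 in each direction, with at least 50 UMIs and in at least 10% of cells, and leading members of the lists, Gstt1 left out. Genes outside this rule and the subsets were chosen after their values were seen. Doublets were not removed in the main values. Scrublet at its own threshold marked 0 treated and 10 untreated barcodes, and an alternative removed 4.41% and 5.42% of barcodes, including 1 treated and 6 untreated Gstt1-low cells. The procedure was tested on simulated counts drawn independently from 1 summed profile, as the interval assumes. The gathering of UMIs in single cells was not simulated, so that test does not cover it. Tools were scanpy 1.11.5, scipy 1.17.1, numpy 2.4.6, matplotlib 3.10.9 and pandas 2.3.3 under Python 3.11.15. Alternatives covered depth and mitochondrial limits, Gstt1 and keratin limits, thinning, scaling, doublets and the subsets.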

Additional observations from a re-analysis of the deposited data

How the results depend on the processing

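No paired analysis was possible because each group is 1 library, and for the same reason no library could be left out. The share of Gstt1-low cells among cells passing the depth limits was 4.70% for treated and 1.72% for untreated cells with at least 10000 UMIs per cell, and 0.812% in the treated library at 2000. In the untreated library it was 0.658% at 0 Gstt1 UMIs, 3.57% with the Gstt1 limits applied to thinned cells and 1.69% with at least 20 keratin and Epcam UMIs, and the remaining keratin-rich cells alone were 1.43% of treated and 1.39% of untreated cells. The count of called genes went to 1294, against 2152, for Gstt1-low over Gstt1-high cells with thinned Gstt1 limits. Thinning each cell gave 710 for treated over untreated Gstt1-low cells and 1448 for treated Gstt1-low over untreated Gstt1-high cells, and a minimum of 100 UMIs per gene gave 417 for the first. With the remaining keratin-rich cells only, an alternative chosen after seeing the data, the milk list's treated over untreated median was 1.18, but over 2 genes that went opposite ways, so it shows no turn of the list. In Gstt1-low over Gstt1-high cells within the untreated library Epsti1 came to -0.077, from 2 UMIs, and Krt19 to -2.01. In treated Gstt1-low over untreated Gstt1-high cells Krt19 came to -1.84 and Ptn to -1.81. Krt19 and Ptn had 0 UMIs in these Gstt1-low cells, so those 3 values come from the 0.5 added counts, and a floor of 3 counts lies above the Gstt1-high level and gives no direction. Why the shares and counts moved was not tested, except that fewer UMIs or cells enter. Of 1265 values for single genes, 1139 were counted as the same, 122 as moved and 4 as reversed in direction. These counts do not say whether each call held. Low depth limits genes seen in few cells.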
